A study of Danio rerio with 12 samples.

Results

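The genes described here are 10 pump, transporter, channel and enzyme genes of skin ionocytes, the epidermal cells through which a zebrafish larva exchanges ions with the water. They were taken by gene name from the deposited count tables, and all 10 were found among the 26255 genes listed there. The set holds the 5 tandem copies of the sodium pump alpha subunit (atp1a1a.1 to atp1a1a.5), the pump's beta subunit atp1b1b, the sodium chloride cotransporter slc12a10.2, the epithelial calcium channel trpv6, and the carbonic anhydrases ca15a and ca2.

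A freshwater fish loses salt to the water and takes it back through ionocytes of several types. The sodium pump, a complex of an alpha subunit that hydrolyses ATP and a beta subunit that carries it to the membrane, powers uptake from the basolateral side. In zebrafish, calcium enters through trpv6 in sodium-pump-rich (NaR) cells, which use atp1a1a.1 and atp1b1b; sodium and chloride enter through slc12a10.2 in NCC cells, which use atp1a1a.2; and protons leave through proton-pump-rich (HR) cells, which use carbonic anhydrase and atp1a1a.5.

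Poly(A) RNA of larvae exposed to broflanilide, a meta-diamide insecticide aimed at GABA receptors of insects, or to solvent alone was sequenced in 12 libraries. The control group received DMSO alone (n = 5), the low dose was 1 µg/L broflanilide (n = 4) and the high dose was 10 µg/L (n = 3). Strain, larval age and duration of exposure are not stated in the labels. They name larvae as the tissue, so each value sums over every cell that contained the transcript, and fewer cells of a type cannot be told apart from less RNA per cell. Nothing in the labels says that replicates of a group came from separate clutches, so p-values measure the spread between these libraries only, which may be technical.

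Between 10721597 and 16380300 reads were counted per library. Control replicates 2 and 3 and low dose replicate 4 stood apart in the level of epidermal keratinocyte markers, scored as the mean log2 CPM (read counts scaled to a common library total) of 11 measured genes minus the control mean. The score was -1.49, 1.098 and -1.73 in these libraries and between -0.59 and 0.52 in the other 9. The list has 14 genes, of which krt5 had 0 to 30 reads per library and epcam 0 to 2. Among ionocyte transcription factor genes, foxi3a, which specifies ionocytes, had 15 to 61 reads in each library and gcm2, needed for HR cells, had 23 to 61. The related foxi1 had 0 to 20 reads and foxi3b 0 to 3. Such counts in RNA of larvae cannot show which cells held the pump, transporter, channel and enzyme transcripts. Their assignment to ionocytes was therefore not tested.

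Levels per gene length were compared in FPKM (fragments scaled by gene length and by a per-library divisor that differed from the total count), as deposited. In controls the order ran from atp1a1a.4 (67.4 ± 25.6 FPKM, SD, n = 5) and atp1a1a.1 (51.8 ± 7.72) through atp1b1b (18.6 ± 1.71), atp1a1a.2 (13.8 ± 8.39), atp1a1a.3 (6.43 ± 3.50), ca2 (5.36 ± 2.11) and ca15a (4.63 ± 2.00) to slc12a10.2 (1.52 ± 0.58), atp1a1a.5 (1.38 ± 0.61) and trpv6 (0.281 ± 0.260). Between neighbours in this order, control ranges were apart only for atp1a1a.1 and atp1b1b and overlapped in every other case. By control mean, the 2 most abundant pump copies exceeded 97.0% and 96.2% of all listed genes, atp1b1b 88.9%, slc12a10.2 45.3% and the calcium channel 22.7%.

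**Figure D1:**
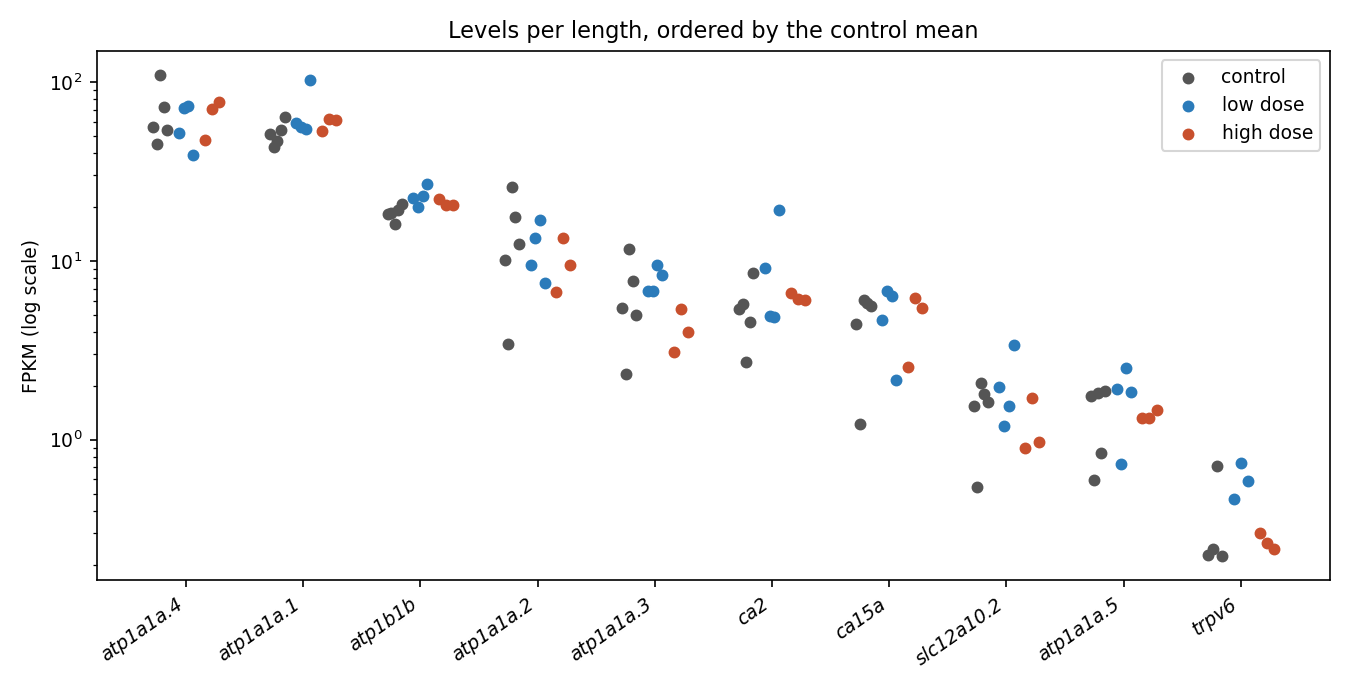
FPKM of the 10 genes on a log axis, ordered from left to right by their control mean. Each point is a library, coloured by group, and the 2 libraries in which trpv6 had no read (control replicate 4 and low dose replicate 2) cannot be drawn on this axis. The genes span from 67.4 FPKM for atp1a1a.4 to 0.281 FPKM for trpv6 in controls, and the dosed groups overlap the controls for each gene.

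The 5 alpha subunit copies lie side by side on the plus strand of chromosome 1 (GRCz11), within 160.3 kb that holds no other gene. From low to high coordinates they are atp1a1a.4 (ENSDARG00000001870, 1:1689775-1706159), atp1a1a.1 (ENSDARG00000002791, 1:1712140-1793371), atp1a1a.2 (ENSDARG00000007739, 1:1789357-1796832), atp1a1a.3 (ENSDARG00000039131, 1:1805294-1815660) and atp1a1a.5 (ENSDARG00000040252, 1:1838164-1850104). The RefSeq annotation of GRCz12tu lists the same order. The annotated spans of atp1a1a.1 and atp1a1a.2 share 4015 bp on the same strand. The split of reads between these 2 copies can depend on counting rules that the sources used here do not state. Likeness in sequence among the 5 copies was not examined, and its part in the split of reads among them was not tested.

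The copy assigned to NaR cells, atp1a1a.1, was at 224, 191, 205, 235 and 278.7 CPM in controls 1 to 5. It was at 257, 247, 238 and 443 CPM in low dose replicates 1 to 4, and at 236, 275 and 272 CPM in high dose replicates 1 to 3. All 7 exposed libraries lay above the control median, but only low dose replicate 4 lay above every control. The low dose differed from controls by a log2 fold change of 0.38 (SE 0.21, 95% interval -0.08 to 0.84, edgeR adjusted p = 0.924), which fell to 0.12 when low dose replicate 4 was left out. At the high dose the difference was 0.20 (SE 0.17, adjusted p = 1.00).

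The copy assigned to NCC cells, atp1a1a.2, was far more variable. Control values were 33.9, 11.6, 87.5, 59.2 and 41.9 CPM, low-dose values were 31.8, 45.7, 56.8 and 24.9 CPM, and high-dose values were 23.1, 46.0 and 32.2 CPM. The controls alone spanned 7.55-fold, with a coefficient of variation of 60.8%, and contained every exposed library. The log2 fold change was -0.24 (SE 0.44) at 1 µg/L and -0.48 (SE 0.48) at 10 µg/L, with 95% intervals of -1.21 to 0.72 and -1.54 to 0.58. Without control replicate 3 they were 0.12 and -0.12, and without high dose replicate 2 the second was -0.76.

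The third copy, atp1a1a.3, was at 18.1, 7.82, 39.1, 25.6 and 16.6 CPM in controls, 22.5, 22.8, 31.5 and 27.5 CPM at 1 µg/L, and 10.5, 18.1 and 13.4 CPM at 10 µg/L. Each low-dose library lay above the control median and each high-dose library below it, yet all 7 lay inside the control range. Against controls the log2 fold change was 0.28 (SE 0.36) at 1 µg/L and -0.62 (SE 0.42) at 10 µg/L. The first was 0.063 without control replicate 2 and 0.62 without control replicate 3, and the second was -0.84 and -0.29 without these. Directly compared, the high dose was lower than the low dose by a log2 difference of -0.90 (SE 0.40, 95% interval -1.75 to -0.05), and the edgeR unadjusted p was 0.0403 with an adjusted p of 0.953. The groups did not overlap, which was so for 6.72% of all genes tested in this comparison. Left out one at a time, single libraries moved this difference between -1.12 and -0.73. The edgeR unadjusted p was not under 0.05 without low dose replicate 3 or 4, or without high dose replicate 1 or 3. With the replicate number as a block it was not under 0.05 either. The unadjusted p stayed under 0.05 with DESeq2, with limma, and with each other single library left out. Its lowest edgeR value was 0.00301 (adjusted p = 0.537), with control replicates 2 and 3 and low dose replicate 4 left out together.

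The most abundant copy, atp1a1a.4, was at 255, 205, 502, 329 and 248 CPM in controls, at 236, 328, 336 and 177 CPM at 1 µg/L, and at 219, 325 and 354 CPM at 10 µg/L. Its highest value was in control replicate 3 and its lowest in low dose replicate 4, the reverse of atp1a1a.1 in the latter library. The log2 fold change was -0.20 (SE 0.28) at 1 µg/L and -0.05 (SE 0.29) at 10 µg/L. Without control replicate 3 these became 0.05 and 0.20.

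The copy assigned to HR cells, atp1a1a.5, was the scarcest of the 5, at 6.83, 2.35, 7.13, 3.26 and 7.28 CPM in controls. It was at 7.43, 2.86, 9.82 and 7.12 CPM at 1 µg/L, and 5.25, 5.24 and 5.80 CPM at 10 µg/L. The 3 high-dose libraries lay close together in the middle of the control range. The log2 fold change was 0.33 (SE 0.43) at 1 µg/L and 0.01 (SE 0.41) at 10 µg/L. The first was 0.10 without low dose replicate 3 and 0.59 without low dose replicate 2, and the second lay between -0.18 and 0.14 with single libraries left out.

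The composition of the array was set by the 2 abundant copies. Of the summed FPKM of all 5 copies, atp1a1a.4 held 47.1% ± 5.96 in controls (SD, n = 5), 39.96% ± 10.8 at 1 µg/L (n = 4) and 46.2% ± 3.86 at 10 µg/L (n = 3), and atp1a1a.1 held 38.6% ± 9.36, 45.6% ± 13.3 and 42.8% ± 4.15. These group means differed by less than the SD of the low-dose libraries, which was the widest SD of any group. For atp1a1a.4 the control and low-dose means differed by more than the control SD of 5.96. Single libraries differed more: in low dose replicate 4 atp1a1a.1 held 64.3% and atp1a1a.4 held 24.6%, while in control replicate 3 they held 23.8% and 56.1%. The ratio of atp1a1a.4 to atp1a1a.1 was thus 0.382 in the first and 2.35 in the second, the lowest and highest of the 12 libraries.

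**Figure D2:**
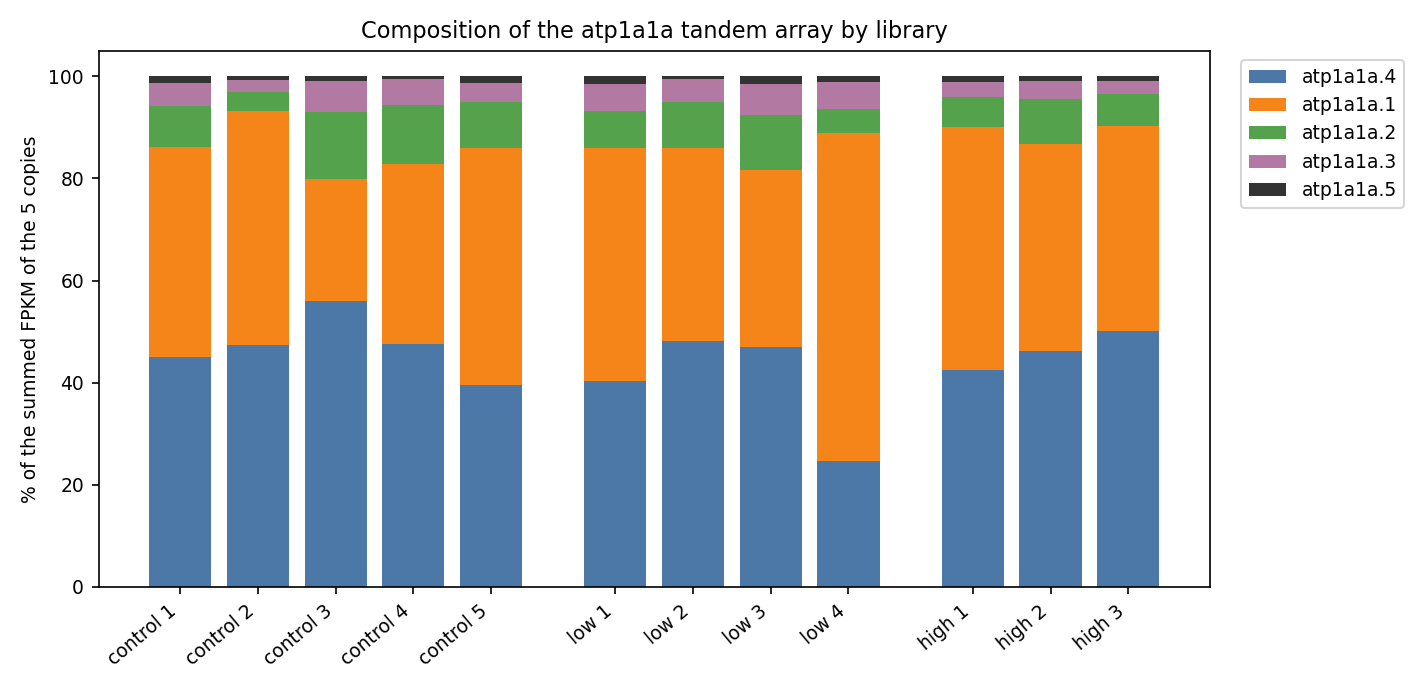
Percent of the summed FPKM of the 5 atp1a1a copies held by each copy (stacked bars, y axis from 0), with 1 bar per library in the order control, low dose and high dose. In low dose replicate 4 atp1a1a.1 held 64.3% of the sum, and in control replicate 3 atp1a1a.4 held 56.1%, whereas the rarer copies atp1a1a.2, atp1a1a.3 and atp1a1a.5 held small shares throughout.

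The beta subunit gene atp1b1b (ENSDARG00000076833) lies on the plus strand of chromosome 1 at 1:10720294-10739221. It was the steadiest of the 10, at 42.1, 43.5, 37.6, 44.5 and 48.6 CPM in controls, a coefficient of variation of 9.20%. The low-dose libraries were at 51.6, 47.0, 53.2 and 61.9 CPM and the high-dose libraries at 52.6, 48.4 and 47.8 CPM. All 7 exposed libraries were above the control median, and 3 of 4 at 1 µg/L and 1 of 3 at 10 µg/L were above every control. The log2 fold change was 0.30 at 1 µg/L (SE 0.15, 95% interval -0.02 to 0.61, edgeR unadjusted p = 0.0631, adjusted p = 0.924) and 0.19 at 10 µg/L (SE 0.15, interval -0.14 to 0.52). Its interval was the narrowest of the set and had its upper end at a log2 difference of 0.61 at the low dose.

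The cotransporter gene slc12a10.2 (ENSDARG00000071173, chromosome 7, plus strand, 7:4332430-4380448) takes up sodium with chloride at the apical membrane of NCC cells. Controls were at 9.99, 3.56, 13.5, 11.7 and 10.6 CPM, low-dose libraries at 12.7, 7.82, 10.0 and 21.6 CPM, and high-dose libraries at 5.98, 11.2 and 6.36 CPM. Low dose replicate 4 was the highest of all and control replicate 2 the lowest, and the groups overlapped. The log2 fold change was 0.40 (SE 0.38) at 1 µg/L, or 0.04 without low dose replicate 4, and -0.34 (SE 0.40) at 10 µg/L, or -0.68 without high dose replicate 2 and -0.18 without high dose replicate 1. High against low dose gave -0.74 (SE 0.44, unadjusted p = 0.111 by edgeR), or -0.38 without low dose replicate 4.

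The calcium channel gene trpv6 (ENSDARG00000014496, chromosome 16, minus strand, 16:12294284-12319822) was counted at the limit of detection. Controls had 8, 9, 18, 0 and 9 reads, low-dose libraries had 15, 0, 20 and 27, and high-dose libraries had 12, 8 and 8. A count of 0 allows up to 0.272 CPM in control replicate 4 and up to 0.209 CPM in low dose replicate 2, counting error only, while the libraries with reads ran from 0.585 to 1.93 CPM. At the low dose the log2 fold change was 0.65 with a 95% interval of -1.55 to 2.86, and it was 1.31 without control replicate 3 and 0.31 without low dose replicate 3. At the high dose the gene fell below the required mean of 10 reads, and without that requirement its value was -0.03 with an interval of -2.28 to 2.22. Both intervals span changes in either direction, with few reads and a control coefficient of variation of 92.8%. The annotated span of trpv6 shares 185 bp with si:dkey-26c10.5 on the opposite strand. That gene had a mean of 29.3 reads per library, against 11.2 for trpv6. A part of its reads in the count of trpv6 was not tested.

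The carbonic anhydrases supply protons and bicarbonate from carbon dioxide and water. The membrane-anchored ca15a (ENSDARG00000015654, chromosome 12, minus strand, 12:4320041-4331117) was at 6.91, 1.92, 9.51, 9.06 and 8.71 CPM in controls, 7.19, 10.6, 9.92 and 3.31 CPM at 1 µg/L, and 4.05, 9.79 and 8.53 CPM at 10 µg/L. Each group held 1 low library, and the rest lay together at higher values. The log2 fold change was 0.09 (SE 0.45) at 1 µg/L and 0.04 (SE 0.47) at 10 µg/L.

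The cytosolic enzyme gene ca2 (ENSDARG00000014488, chromosome 24, minus strand, 24:32650227-32665283) was at 7.93, 8.53, 4.03, 6.71 and 12.7 CPM in controls, 13.5, 7.40, 7.22 and 28.2 CPM at 1 µg/L, and 9.97, 9.18 and 9.10 CPM at 10 µg/L. Its low-dose log2 fold change of 0.81 (SE 0.43, 95% interval -0.12 to 1.74, edgeR adjusted p = 0.924) was the largest of the set. It was 1.05 without control replicate 5. The edgeR unadjusted p was under 0.05 in that run and without low dose replicate 2 or 3. The fold change was 0.22 without low dose replicate 4. That library also had the lowest keratinocyte score (-1.73) and the lowest erythrocyte score (-1.63), whose part in the value of ca2 was not tested. At the high dose ca2 was at 0.23 (SE 0.33), or 0.063 without control replicate 3 and 0.45 without control replicate 5. The whole of ca2 lies inside si:ch211-282b22.1 on the opposite strand. That gene ran from 16.8 to 33.6 CPM in controls and from 18.6 to 30.5 CPM at the low dose, where low dose replicate 4 had 25.1 CPM. Whether the counts were made by strand is not stated, and a part of each gene's reads in the other's count was not tested.

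**Figure D3:**
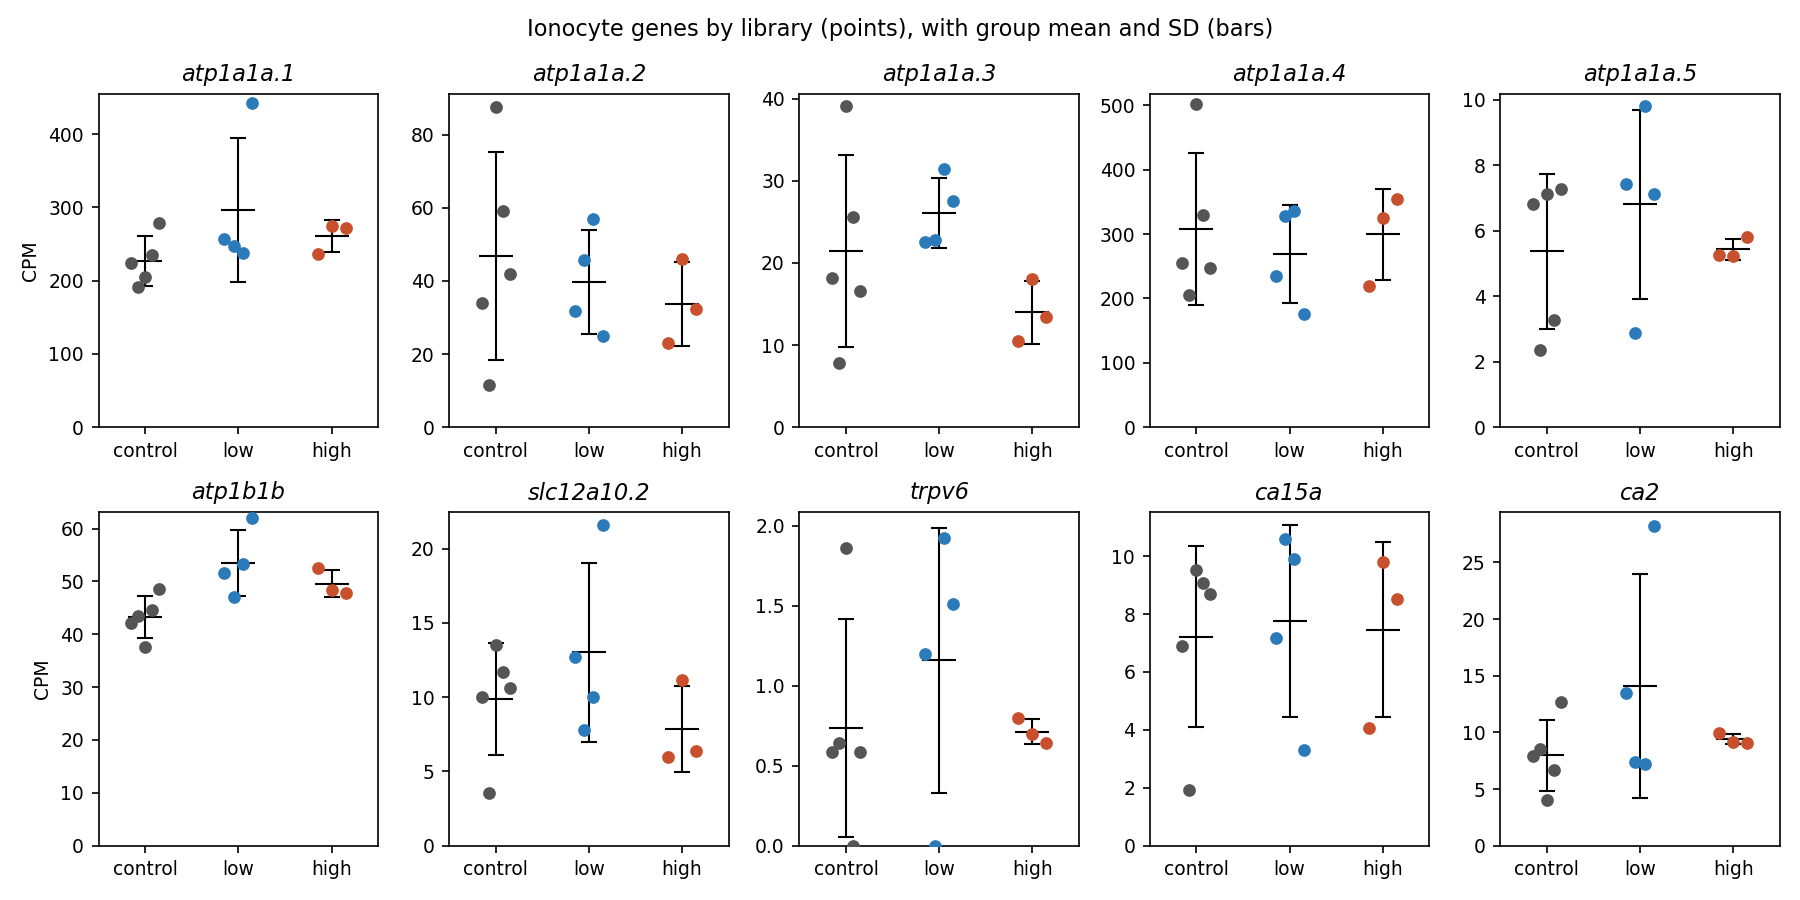
CPM of each of the 10 genes on a linear axis from 0, with 1 point per library in the control (n = 5), low-dose (n = 4) and high-dose (n = 3) groups, and bars for the group mean and SD. Low dose replicate 4 is the top point of its group for atp1a1a.1 (443 CPM), atp1b1b (61.9 CPM), slc12a10.2 (21.6 CPM) and ca2 (28.2 CPM), and the 3 high-dose points of atp1a1a.3 lie below all 4 low-dose points.

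By edgeR's quasi-likelihood test with Benjamini-Hochberg adjustment over all genes, 0 of the 10 genes passed an adjusted p of 0.05 at the low dose, where 0.00% of 18811 tested genes did. At an unadjusted p under 0.05 there were 0 of the 10, against 3.89% of all genes (732), and 0 of the 10 had groups that did not overlap, against 1.55%. In the same comparison DESeq2 called 1 gene and limma 0, none of them among the 10. At the low dose 8 of the 10 were higher than controls and 2 lower (median log2 fold change 0.31), with 50.2% of all genes higher (median 0.0013).

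At the high dose 9 of the 10 were tested and 0 passed (0.00% of 18618 genes). At an unadjusted p under 0.05 there were again 0, against 2.00% (373), and 0 had groups apart, against 2.47%. DESeq2 called 4 genes and limma 2, with 0 of the 10 among them. Here 5 were higher and 4 lower (median 0.01, with 49.5% of all genes higher and a median of -0.0032).

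Between the doses 0 of 10 passed (0.00% of 18786 genes). The 1 gene at an unadjusted p under 0.05 was atp1a1a.3, against 4.48% of all genes (841), and the same gene was the 1 of 10 whose groups were apart, against 6.72%. DESeq2 called 0 genes and limma 2, again with 0 of the 10. In this comparison 9 of 10 were lower at the high dose (median -0.28, with 48.9% of all genes higher and a median of -0.011); all 3 comparisons share libraries, so the signs in one are not independent of those in another. In the authors' deposited table the low-dose log2 fold changes ran from -0.23 for atp1a1a.2 to 0.84 for ca2, and those of the high dose from -0.64 for atp1a1a.3 to 0.21 for ca2.

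**Figure D4:**
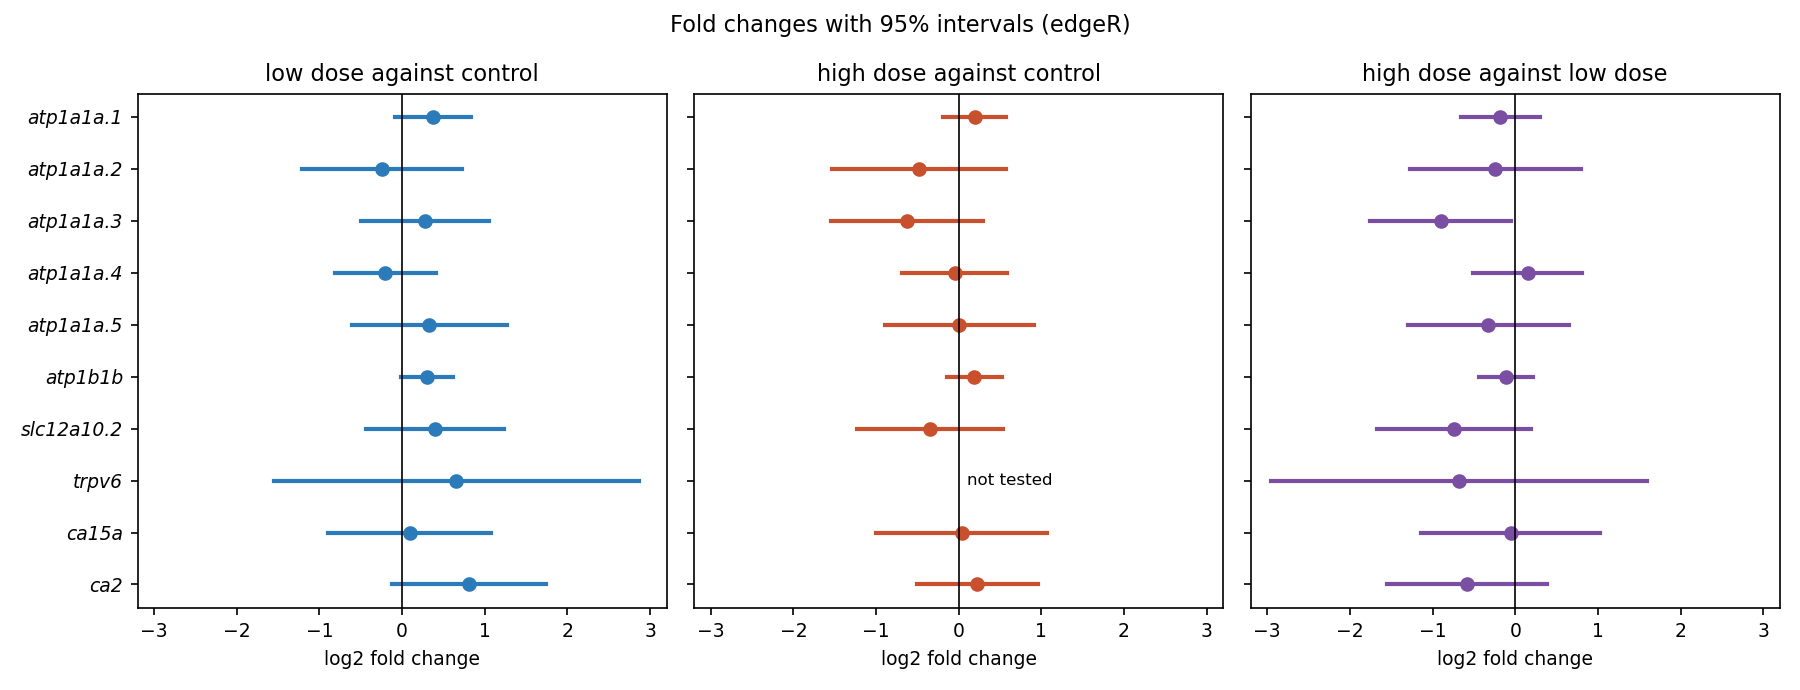
Log2 fold changes (points) with 95% intervals (lines) from edgeR for the 10 genes in the 3 comparisons. The intervals cross 0 in each case except atp1a1a.3 for high against low dose (-1.75 to -0.05), and trpv6 was not tested at the high dose because its mean count was too low.

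Some of the 10 genes moved together across the 12 libraries. Of 45 pairs, 9 had a Pearson correlation of log2 CPM past an adjusted permutation p of 0.05, and 1 of these also passed by Spearman's rho. That 1 pair was atp1a1a.2 and ca15a (r = 0.885, rho = 0.846, adjusted permutation p = 0.0009 and 0.0419, n = 12), at r = 0.849 without control replicates 2 and 3 and 0.9065 with group means removed. Of all pairs of genes tested between the doses, 2.99% had an r at least as large in size as the smallest of the 9 (0.761). The other 8 passed by Pearson alone, with adjusted permutation p from 0.0129 to 0.0168 for r and from 0.0522 to 0.106 for rho. Of these, atp1a1a.2 went with atp1a1a.3 (r = 0.818) and atp1a1a.4 (0.818), atp1a1a.3 with slc12a10.2 (0.818), and atp1a1a.4 with ca15a (0.761). ca2 went with atp1a1a.1 (0.841) and atp1b1b (0.837) and against atp1a1a.4 (-0.813), and atp1a1a.1 went with atp1b1b (0.786). Without the 2 libraries farthest from the median of the first gene of each pair, these 8 values of r lay between 0.412 and 0.799 in size. Of the pairs assigned to 1 cell type, atp1a1a.1 and atp1b1b of NaR cells had r = 0.613 without low dose replicate 4 and control replicate 2. The pair atp1a1a.2 and slc12a10.2 of NCC cells did not pass (r = 0.551, rho = 0.441, adjusted permutation p = 0.195 and 0.384). It had r = 0.014 without control replicates 2 and 3. The NaR cell gene trpv6 did not pass with atp1a1a.1 (r = 0.155) or atp1b1b (0.229). Among HR cell genes, atp1a1a.5 did not pass with ca15a (0.330) or ca2 (0.210), nor did ca15a with ca2 (-0.440). The array neighbours atp1a1a.4 and atp1a1a.1 did not pass (r = -0.414, rho = -0.196, adjusted permutation p = 0.407 and 0.855).

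The same libraries differed in keratinocyte markers. Over 40 relations of the 10 genes with scores of 4 other cell types, 4 passed by both coefficients, each with a permutation test. With the keratinocyte score these were atp1a1a.4 (r = 0.905, rho = 0.832, adjusted permutation p = 0.0008 and 0.0179), atp1a1a.2 (r = 0.887, rho = 0.951, adjusted permutation p = 0.0012 and 0.0004) and ca15a (r = 0.903, rho = 0.860, adjusted permutation p = 0.00147 and 0.0118). Without low dose replicate 4 and control replicate 2 the 3 values of r were 0.896, 0.932 and 0.770, and with group means removed they were 0.901, 0.925 and 0.945. Among 18775 tested genes outside the marker list, 1.79% had a correlation with the keratinocyte score at least as large in size as the smallest of the 3. The other relation was atp1a1a.4 with erythrocyte markers (r = 0.803, rho = 0.811, adjusted permutation p = 0.0137 and 0.0206), at 0.777 without low dose replicate 4 and high dose replicate 1. Of 18779 tested genes outside the erythrocyte list, 863 had an r of at least 0.803 in size. ca2 ran the other way against keratinocyte markers (r = -0.730), short of the threshold (adjusted permutation p = 0.0642). The summed level of the keratinocyte markers ran from 1779 to 14161 FPKM in controls, from 1709 to 10184 at 1 µg/L and from 4305 to 10552 at 10 µg/L, and its part in the values of the 3 genes was not tested.

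**Figure D5:**
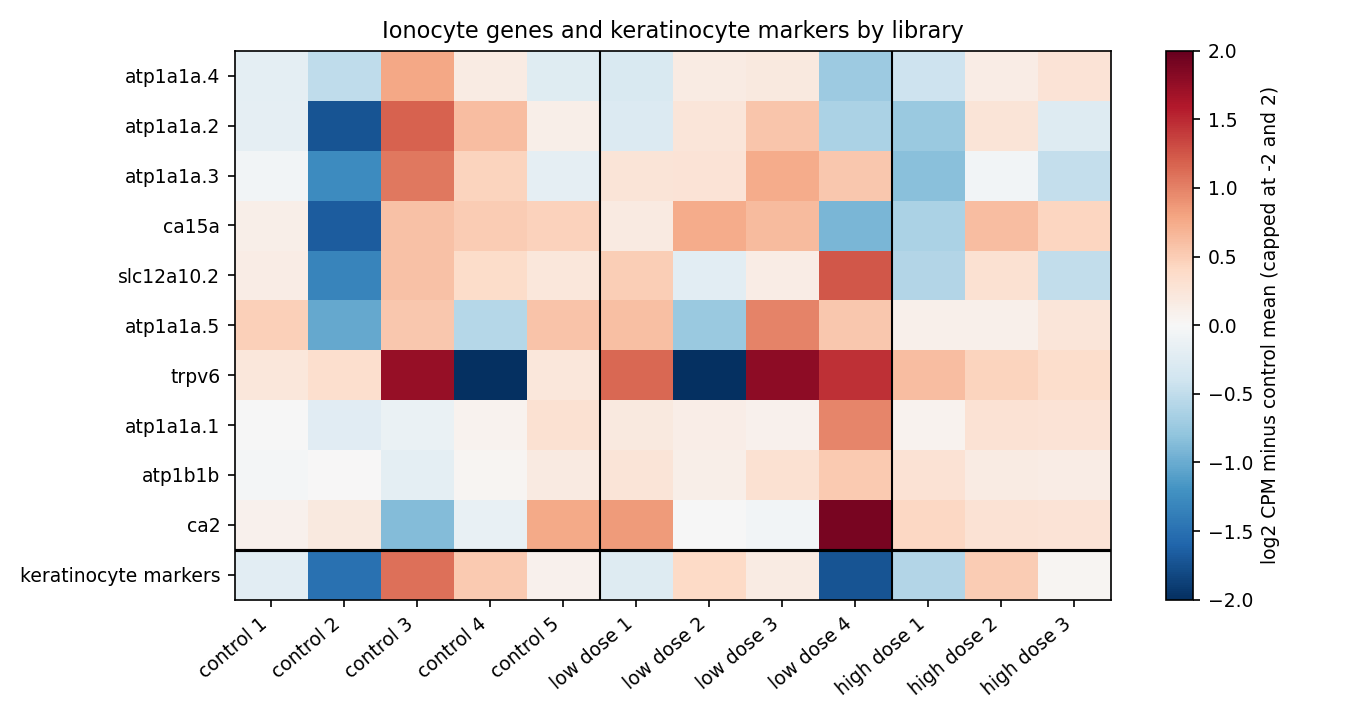
Log2 of CPM plus 0.1 minus the control mean for the 10 genes, with the keratinocyte marker score in the bottom row (libraries in columns, colour scale capped at -2 and 2). Control replicate 2 and low dose replicate 4 are low for the keratinocyte score and for atp1a1a.4, atp1a1a.2 and ca15a. Control replicate 3 is the highest library for the score, atp1a1a.4 and atp1a1a.2. For ca15a control replicate 3 is at 9.51 CPM, below the 10.6 CPM of low dose replicate 2. The gene ca2 is highest in low dose replicate 4.

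For 1 gene of each ionocyte type, the most alike genes by Pearson correlation of log2 CPM were listed over 13834 genes and 12 libraries, as a description. For slc12a10.2 they were c6ast4 (an astacin protease, r = 0.951), ephx2 (an epoxide hydrolase, 0.930) and epas1a (a hypoxia-inducible factor subunit, 0.925), with 0.850, 0.792 and 0.822 when the 2 farthest libraries were left out. For atp1a1a.5 they were ctnnd1 (0.846), klf11b (0.818) and the keratin gene krt96 (0.811), with 0.782, 0.784 and 0.465 without the 2 farthest libraries. For trpv6 they were malt1 (0.837), ppp1r8a (0.815) and surf4l (0.806). These dropped to 0.134, 0.309 and 0.533 without the 2 farthest libraries, control replicate 4 and low dose replicate 2. In both of these libraries trpv6 had no read. Spearman's rho over the 12 libraries was 0.480, 0.697 and 0.711.

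Other genes of the same transport pathways were counted by list, and 0 genes of any list passed the edgeR threshold in any of the 3 comparisons. Genes named below for an unadjusted p under 0.05 were picked after their values were seen. By edgeR, 3.89% of all tested genes had such a p at the low dose, 2.00% at the high dose and 4.48% between the doses. Of 12 tested genes of HR cell acid and ammonia transport, 4 were higher and 8 lower at 1 µg/L (median log2 fold change -0.10) and 5 and 7 at 10 µg/L (-0.10). The list has 14 genes, of which atp6v1aa had 0 to 5 reads per library and slc4a1b 0 to 10, and these were not tested. The tested gene slc9a3.2 had 2 to 48 reads. The ammonia channel gene rhcga was at 184 ± 90.3 CPM in controls (SD, n = 5), 184 ± 12.4 at 1 µg/L (n = 4) and 185 ± 87.3 at 10 µg/L (n = 3). The proton pump subunit gene atp6v0ca was at 370.1 ± 62.6, 302 ± 62.6 and 324 ± 49.5 CPM, and the ammonia transporter gene rhbg at 119 ± 54.1, 117 ± 19.3 and 92.1 ± 37.5 CPM. Another proton pump gene, atp6v1ab, had the 1 unadjusted p under 0.05 of this list, for high against low dose (log2 difference 0.42, SE 0.18).

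Other calcium transport genes, mostly of export and with the entry channel trpv4 among them, were tested in 7 rows of 6 names. At the low dose 6 were higher and 1 lower (median 0.28), and at the high dose 7 were higher (0.17), with 0 at an unadjusted p under 0.05. Scored as for the keratinocyte markers, this list was at -1.196 in control replicate 3 and between -0.015 and 0.531 in the other controls. The score was 0.265 to 0.843 at 1 µg/L and 0.145 to 0.574 at 10 µg/L. The plasma membrane calcium pump gene atp2b1a was at 110 ± 20.6 CPM in controls, 121 ± 16.1 at 1 µg/L and 112 ± 8.63 at 10 µg/L. Its relative atp2b2 is listed under 2 identifiers, with log2 fold changes of 0.07 and 0.28 at 1 µg/L and 0.05 and 0.09 at 10 µg/L. The NaR cell gene igfbp5a had 0 to 10 reads per library and was not tested.

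Beside slc12a10.2, 11 rows of chloride and bicarbonate transport genes were tested, 5 higher and 6 lower at each dose (medians -0.01 and -0.14). The bicarbonate cotransporter gene slc4a4a was at 140 ± 15.5, 136 ± 14.3 and 141 ± 25.8 CPM in controls, low and high dose, slc12a2, a sodium potassium chloride cotransporter, at 78.3 ± 18.4, 84.7 ± 23.2 and 71.7 ± 15.6, and the chloride channel gene clcn2c at 13.9 ± 4.66, 12.1 ± 4.49 and 9.01 ± 3.27. The tandem relative slc12a10.3 had a log2 fold change of -0.97 at the high dose (SE 0.39, unadjusted p = 0.0297 by edgeR). The kidney-type cotransporter slc12a3 was at 9.70, 5.69, 7.75, 14.8 and 12.1 CPM in controls, 10.9, 9.28, 8.67 and 28.6 CPM at 1 µg/L, and 5.25, 4.81 and 5.88 CPM at 10 µg/L. Of the high-dose libraries 2 of 3 lay below every control, with a log2 fold change of -0.92 (SE 0.34, edgeR unadjusted p = 0.0197, adjusted p = 1.00), and high against low dose gave -1.44 (SE 0.44). The chloride channel gene cftr reached 12.8 CPM in low dose replicate 4, with 0.524 to 2.70 CPM elsewhere. Its low-dose log2 fold change was 1.69 (SE 0.62).

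Among other sodium pump subunits, 4 of 12 were higher and 8 lower at 1 µg/L (median -0.14) and 3 and 9 at 10 µg/L (-0.07). Neuronal atp1a3a was at 695 ± 85.6, 592 ± 41.3 and 673 ± 113 CPM in controls, low and high dose, atp1b2a at 508 ± 62.9, 453 ± 43.4 and 487 ± 84.6, and atp1b1a, the paralog of atp1b1b, at 384 ± 102, 406 ± 36.7 and 369 ± 53.1. At an unadjusted p under 0.05 there were atp1b2b (-0.84, SE 0.28) and atp1a2a (1.01, SE 0.40) at 1 µg/L, fxyd6, a small pump regulator (0.59, SE 0.23), at 10 µg/L, and atp1b4 (0.53, SE 0.24) for high against low dose. In low dose replicate 4 atp1b4 was at 65.0 CPM, while the other low-dose libraries were at 122 to 144 CPM, controls at 136 to 188 and high-dose libraries at 140 to 191. Of 10 other carbonic anhydrases, 5 were higher and 5 lower at 1 µg/L (median 0.01) and 9 and 1 at 10 µg/L (0.13), with 0 at an unadjusted p under 0.05. The erythrocyte enzyme gene cahz, which is also in the erythrocyte marker list, was at 32.6 ± 6.90, 28.8 ± 3.37 and 33.2 ± 8.64 CPM, ca10a at 57.5 ± 9.66, 46.7 ± 11.7 and 57.8 ± 10.98, and ca8 at 20.1 ± 6.35, 17.3 ± 2.37 and 20.1 ± 3.51.

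Of 5 tested potassium channel genes of potassium-secreting (KS) ionocytes, 1 was higher and 4 lower at each dose (medians -0.34 and -0.33). In this list kcnj1b was at 6.12 ± 1.36, 4.36 ± 1.37 and 4.89 ± 1.99 CPM, kcnj1a.1 at 4.23 ± 1.92, 2.97 ± 0.45 and 4.18 ± 0.49, and kcnj1a.5 at 1.92 ± 1.099, 2.78 ± 1.203 and 1.03 ± 0.68. Ionocyte transcription factor genes were 1 higher and 4 lower at each dose (medians -0.25 and -0.07), with tfap2a at 172 ± 20.8, 145 ± 10.8 and 173 ± 28.1 CPM, gcm2 at 3.36 ± 0.90, 2.94 ± 1.01 and 3.02 ± 1.75, and grhl1 at 2.64 ± 1.66, 3.56 ± 1.34 and 2.52 ± 1.95. For foxi3a the log2 fold change was -0.65 (SE 0.43) at 1 µg/L and -0.84 (SE 0.55) at 10 µg/L, with edgeR unadjusted p of 0.155 and 0.156. Of 13 endocrine genes that control ion uptake, 6 were higher and 7 lower at 1 µg/L (median -0.01) and 7 and 6 at 10 µg/L (0.04). The vitamin D hydroxylase gene cyp24a1 was at 59.2 ± 15.7, 82.9 ± 32.1 and 61.3 ± 18.2 CPM, the prolactin receptor gene prlra at 63.2 ± 21.2, 53.1 ± 13.0 and 68.6 ± 23.3, and hsd11b2, which inactivates cortisol, at 36.0 ± 6.51, 42.3 ± 12.5 and 45.05 ± 6.53. The mineralocorticoid receptor gene nr3c2 was at 1.46, 1.75 and 1.53 CPM at the high dose and between 0 and 0.808 CPM in controls, on 0 to 50 reads per library. Its log2 fold change was 2.08 (SE 0.86, edgeR unadjusted p = 0.0322, adjusted p = 1.00). At this dose 2.47% of all tested genes had groups that did not overlap. Low-dose libraries were at 2.40, 0.279, 0.193 and 2.80 CPM. There the log2 fold change was 1.94 (SE 0.998), and high against low dose gave 0.14 (SE 0.96).

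Marker lists of other cell types that could hold these transcripts were measured in the same way. Keratinocyte markers were 1 higher and 10 lower at 1 µg/L (median -0.21) and 2 and 9 at 10 µg/L (-0.14), with krt91 at 4313 ± 2655, 3760 ± 1866 and 3941 ± 2177 CPM, krt4 at 2750 ± 1795, 2251 ± 1559 and 3182 ± 1467, and cyt1 at 2660 ± 1557, 2004 ± 1545 and 2417 ± 1032 in controls, low and high dose. The basal cell gene tp63 was lower at the high than at the low dose (-0.74, SE 0.32, edgeR unadjusted p = 0.0361). In that comparison 7 keratinocyte markers were higher and 4 lower (median 0.065). Pronephros markers were 5 higher and 4 lower at 1 µg/L (median 0.02) and 3 and 6 at 10 µg/L (-0.08), with lrp2a at 62.3 ± 26.1, 70.8 ± 23.1 and 64.1 ± 14.6 CPM and pax2a at 55.3 ± 6.77, 56.2 ± 2.90 and 52.4 ± 10.0, and cdh17, shared with the enterocyte list, at 32.2 ± 13.7, 29.5 ± 4.86 and 25.05 ± 3.18. The pronephric chloride channel gene clcnk was at 1.69, 2.70, 3.00, 2.99 and 2.14 CPM in controls and at 0.332, 0.787 and 1.05 CPM at the high dose, below every control. Its log2 fold change was -1.80 (SE 0.57, edgeR unadjusted p = 0.00886, adjusted p = 1.00), on 5 to 51 reads per library. At this dose 2.47% of all tested genes had groups that did not overlap. Enterocyte markers were 3 higher and 5 lower (median -0.08) and 4 and 4 (0.06), with fabp6 at 337 ± 213, 329 ± 78.1 and 280.1 ± 102 CPM, apoa4b.1 at 149 ± 73.9, 119 ± 60.2 and 165 ± 57.8, and anpepb at 44.9 ± 23.8, 60.2 ± 25.3 and 50.1 ± 22.6. Erythrocyte markers were 0 higher and 7 lower at 1 µg/L (median -0.28) and 4 and 3 at 10 µg/L (0.02), with hbbe1.1 at 160.3 ± 65.4, 94.2 ± 64.0 and 159.7 ± 37.5 CPM, hbae3 at 64.6 ± 29.3, 58.6 ± 22.9 and 74.2 ± 18.5, and a summed level of 195 to 575, 82.4 to 381 and 265 to 455 FPKM in controls, low and high dose; hbbe3 and alas2 had 0 reads in 8 and 10 of the 12 libraries. The erythrocyte score was -1.63 in low dose replicate 4, -0.31 to 0.13 in the other low-dose libraries and -0.46 to 0.35 in controls. The keratinocyte score was -1.73 in low dose replicate 4, -0.26 to 0.39 in the other low-dose libraries and -1.49 to 1.098 in controls. Between the doses the list medians ran from -0.43 for chloride and bicarbonate transport to 0.34 for erythrocyte markers.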

How the data were processed

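Whole-number read counts per Ensembl gene for 12 libraries were deposited by the authors in 1 table per dose, with the same 5 controls in both. Per the submitters' processing notes, fastp, HISAT2, featureCounts, DESeq2 and GRCz11 were used, without versions or roles, and poly(A) libraries were made with a directional kit, per the labels' protocols. The deposited normalized signal was not used here. The deposited FPKM were used to compare levels between genes. The per-library divisor in them was 0.841 to 1.18 times the deposited total count, the extremes being control replicates 3 and 2. The TMM factors of these libraries were 0.821 and 1.15. The authors' deposited log2 fold changes and p-values are quoted only where that table is named.

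Counts were tested with edgeR 4.0.16 (R 4.3.3): TMM scaling, quasi-likelihood test, prior count of 0.125, a minimum mean count of 10, Benjamini-Hochberg adjustment over all genes, threshold 0.05. Each dose was fitted with its controls, and high against low dose over all 12 libraries for the 25004 genes in both tables. SE was obtained from the log2 fold change and the square root of F. CPM are on 1 TMM scale over 12 libraries. Log2 CPM for scores and correlations used a prior count of 1, and correlations were tested with 100000 permutations. The median 95% interval of a log2 fold change reached 0.71 (low dose), 0.73 (high dose) and 0.76 (high against low) to either side. Scripts were tested on simulated data.

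The 10 genes and the further lists were chosen with earlier results of these data known. Named were all 10 genes, up to 3 tested genes of highest mean CPM per list, and the 3 genes most correlated (minimum mean count 50) with trpv6, slc12a10.2 and atp1a1a.5. Alternatives were DESeq2 1.42.0 or its size factors, limma 3.58.1 with array quality weights, other count filters, a prior count of 5, a replicate block, each library left out, and control replicates 2 and 3 with low dose replicate 4 left out together, since these stood apart in an earlier analysis of the same data.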

Additional observations from a re-analysis of the deposited data

Results flagged for a closer look

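In low dose replicate 4, atp1a1a.1 was at 443 CPM, with the other 3 low-dose libraries between 238 and 257 CPM, so that the gap to the nearest of them was 0.909 of the group's whole range. Over 20 groups of 4 or 5 libraries examined in this way for the 10 genes, 1 had such a library, and chance gives about 1 in 20. The groups share the same libraries across the 10 genes and are not independent, so this count cannot be weighed against that rate.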

How the results depend on the processing

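Over 508 log2 fold changes of the 10 genes under alternatives, 471 kept their sign and 37 did not, and 0 of the 10 genes passed the threshold under any alternative run. At the low dose the lowest edgeR unadjusted p was 0.0378 for ca2 without low dose replicate 3 and 0.0479 for atp1b1b without low dose replicate 2. At the high dose it was 0.0447 for atp1a1a.2 and 0.0230 for atp1a1a.3, both without control replicate 2. Low dose against control: limma with array quality weights gave 0.094 for atp1a1a.2 and 0.027 for atp1a1a.4, and leaving out the 3 libraries that stood apart gave 0.11 for atp1a1a.4 and -0.084 for slc12a10.2. Single libraries left out moved atp1a1a.2 from -0.49 to 0.12, atp1a1a.4 from -0.33 to 0.053, ca15a from -0.15 to 0.35, and, with no change of sign, atp1b1b from 0.22 to 0.35. High dose against control: atp1a1a.4 was at 0.073 with limma and 0.11 without the 3 libraries, atp1a1a.5 at -0.0095 with DESeq2 or its size factors and -0.10 without the 3 libraries, and ca15a at -0.15 without them, and single libraries left out gave -0.19 to 0.20, -0.18 to 0.14 and -0.21 to 0.34 for these genes. High against low dose: atp1a1a.1 was at 0.046 with limma and 0.077 without the 3 libraries, trpv6 at 0.23 with limma, atp1a1a.4 at -0.0038 and ca2 at 0.0030 without the 3 libraries, and single libraries left out gave -0.27 to 0.076 for atp1a1a.1, -0.0040 to 0.34 for atp1a1a.4, -0.32 to 0.24 for ca15a and -0.80 to 0.0028 for ca2. The cause of these changes was not tested. Over all genes, DESeq2 called 1 at 1 µg/L and 4 at 10 µg/L, limma called 2 at the high dose and 2 between the doses, and without the 3 libraries edgeR called 1 and 3 there, against 0 by edgeR as reported.

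With the replicate block, high against low dose was 0.070 for atp1a1a.1, -0.026 for atp1a1a.4 and 0.051 for ca2, and 0 genes were called in each comparison. Whether replicate numbers pair the libraries could not be decided from these few libraries. Of 10 same-numbered pairs 4 deviated together above 0.1, with correlations from -0.258 to 0.260. Pairs of unlike number ran from -0.331 to 0.308, and not every library correlated best with its own number. For trpv6 no value was had at a mean count of at least 50, or at the low dose and between the doses where low dose replicate 4 was left out, since too few reads remained.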
